A study of Mus musculus with 20 samples.

Results

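The peak lists of R377H and WT CTCF in mouse embryonic stem cells were compared peak by peak. R377H replaces an arginine by histidine, in the linker between zinc fingers of CTCF, per the working description of the comparison and general knowledge of the protein. All 146318 peaks of the R377H list and all 171719 peaks of the WT list were members, 318037 of the 1447820 peaks in the 10 lists of the series. A peak was shared when at least 1 bp of it overlapped a peak of the other list, and otherwise belonged to 1 list alone. Strength was the deposited fold over expected coverage, the authors' own value, given here as a percentile within the list it came from.

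The study used E14Tg2a cells, a mouse embryonic stem cell line of strain 129/Ola, and clones derived from it, grown without feeders in serum with leukemia inhibitory factor, CHIR99021 and the MEK inhibitor PD0325901. In both groups the endogenous CTCF carried an auxin-inducible degron and was degraded with 500 µM indole-3-acetic acid, while 1 µg/ml doxycycline switched on a stable Ctcf transgene, WT in one group and R377H in the other, for 2 days. Accessible DNA was mapped by Omni-ATAC-seq, in which a transposase cuts open chromatin, with 50000 cells per reaction, and 150 bp paired-end sequencing to about 50 M reads was planned for each sample. The 20 samples make 10 genotypes with 2 replicates each, and the authors combined both replicates of a genotype into 1 list. No spread between replicates could therefore be measured and no test between R377H and WT was possible; all intervals are exact Clopper-Pearson 95% intervals and cover counting error over peaks only. The sources used here do not give whether a transgenic line was 1 clone, so the substitution and the line cannot be told apart.

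CTCF binds DNA through a row of zinc fingers and, where it stays bound, halts the loop-extruding cohesin ring, which sets loop anchors and domain boundaries. It also keeps neighbouring nucleosomes in place, so its sites are among the accessible regions of a stem cell. Linkers between zinc fingers hold neighbouring fingers at the spacing of the DNA bases they read.

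The promoters below carried the strongest peaks of 1 list alone. They were chosen after their values were seen, as the strongest promoter on each side that did not lie at a gap in the peak numbers of the other list, and the strongest such promoter on each side with a CTCF core. The core searched, on both strands, was CC, any 3 bases, AG, any 2 bases and GGC, a part of the CTCF motif, and capitals mark it. Each line runs from 250 bases before an annotated start to 30 bases after it, from the RefSeq table of GRCm38.p6.
Rxfp2 (chr5:150018425-150018704, plus strand, WT list alone): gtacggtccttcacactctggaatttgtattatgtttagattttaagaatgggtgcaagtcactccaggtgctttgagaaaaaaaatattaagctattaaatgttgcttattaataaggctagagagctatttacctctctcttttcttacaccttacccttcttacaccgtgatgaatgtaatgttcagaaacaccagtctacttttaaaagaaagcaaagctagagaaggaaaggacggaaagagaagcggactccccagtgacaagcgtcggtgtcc
Gtsf1 (chr15:103430398-103430677, minus strand, WT list alone): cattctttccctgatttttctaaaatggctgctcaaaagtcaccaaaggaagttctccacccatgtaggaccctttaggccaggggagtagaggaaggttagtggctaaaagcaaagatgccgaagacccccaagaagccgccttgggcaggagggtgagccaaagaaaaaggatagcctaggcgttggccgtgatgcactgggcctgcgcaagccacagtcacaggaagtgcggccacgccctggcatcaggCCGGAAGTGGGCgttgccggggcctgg
Gm9 (chrX:37211012-37211291, minus strand, R377H list alone): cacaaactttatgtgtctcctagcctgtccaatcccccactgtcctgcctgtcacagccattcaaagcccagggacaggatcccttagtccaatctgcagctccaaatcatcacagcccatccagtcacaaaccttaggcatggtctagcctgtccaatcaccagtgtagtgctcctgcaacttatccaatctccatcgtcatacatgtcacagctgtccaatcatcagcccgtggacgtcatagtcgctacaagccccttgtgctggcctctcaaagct
Abcg8 (chr17:84676052-84676331, plus strand, R377H list alone): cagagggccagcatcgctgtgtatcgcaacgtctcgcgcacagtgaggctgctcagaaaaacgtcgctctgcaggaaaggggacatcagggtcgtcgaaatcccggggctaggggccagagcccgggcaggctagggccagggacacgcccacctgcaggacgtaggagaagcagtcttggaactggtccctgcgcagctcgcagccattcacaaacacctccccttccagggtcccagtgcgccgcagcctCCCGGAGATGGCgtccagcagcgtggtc
The WT peak at Rxfp2, the gene of a relaxin-family receptor, lay from 150018598 to 150019002 with a fold of 9.66 (85.0th percentile) and covered 107 of the printed bases. At Gtsf1, a gene of the piRNA pathway, the WT peak from 103430193 to 103430641 had a fold of 6.47 (68.6th percentile) and covered 244. The R377H peaks at Gm9 (37210906 to 37211661, fold 9.66, 84.3rd percentile) and at Abcg8, a sterol transporter gene (84675992 to 84676378, fold 6.11, 63.7th percentile), each covered all 280. The Gtsf1 and Abcg8 cores start just after the annotated start, and the windows of Rxfp2 and Gm9 hold no match. All 8 other mutant lists held the peaks of Rxfp2, Gm9 and Abcg8, and 7 held that of Gtsf1, so R377H stood apart from most lists at the first pair and WT from most lists at the second. Abcg8 lies between 70 and 95 Mb of chromosome 17, where the WT list held fewer peaks than the median of the other mutants.

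The lists were similar in form and differed in length. WT peaks covered 86.1 Mb with a median width of 401 bp and R377H peaks 73.2 Mb with a median width of 403 bp. The expected background coverage behind the fold values, a measure of depth read from their steps, was 5.96 for WT and 4.07 for R377H, and its part in the counts was not tested. Peak names carried 2 number codes per list, 156 and 184 for WT and 158 and 159 for R377H. The sources used here do not give their meaning. Peak numbers skipped 2330 values in WT (1.34%) and 1977 in R377H (1.33%), and at such a gap a missing entry and a missing site cannot be told apart. Of the unmatched peaks, 394 absent WT peaks (0.882%) and 172 R377H-only peaks (0.968%) lay where the other list skips a number. The 8 embryonic stem cell markers named for this purpose were Pou5f1, Nanog, Sox2, Esrrb, Zfp42, Klf4, Tfcp2l1 and Tdgf1. All 8 had a peak within 1 kb of an annotated gene end in both lists. They are part of a list of 20 naive pluripotency genes, of which 18 had such a peak in both. So did 6 of 8 fibroblast markers, so a gene-end peak does not by itself tell cell types apart. At Ctcf, on chromosome 8 from 105636474 to 105682922, the strongest peak stood at the 84.0th percentile in WT and the 84.3rd in R377H, where reads of the transgene could also have mapped.

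The R377H list held nearly all strong peaks of the WT list and lacked many weak ones. The WT list is the longer one with the higher background coverage. A weak site without a called peak may still be open, which was not tested. Of the WT peaks, 44692 were absent from R377H (26.0%, interval 25.8 to 26.2), and of the R377H peaks, 17761 were absent from WT (12.1%, 12 to 12.3). Without chromosome 11 the counts were 42578 of 159425 (26.7%) and 15305 of 133719 (11.4%). On chromosome 11 alone they were 2114 of 12294 WT peaks (17.2%, 16.5 to 17.9) and 2456 of 12599 R377H peaks (19.5%, 18.8 to 20.2). The order of the shares thus turned on chromosome 11, where the R377H list lacked fewer peaks than the WT list did. When both lists were limited to the same number of strongest peaks, 20.1% of WT peaks were absent from R377H and 18.5% of R377H peaks from WT.

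The share without a partner fell with strength on both sides. In WT strength deciles it was 61.4% in decile 1, the weakest, 28.6% in decile 5, 2.84% in decile 8 and 0.0408% (7 of 17172) in decile 10. In the R377H list it was 28.0%, 13.0%, 1.33% and 0.0273% (4 of 14632) in the same deciles. Unmatched peaks were also narrow. Absent WT peaks had a median width of 259 bp and stood at a median percentile of 22.8, against 487 bp and 62.0 for shared WT peaks. R377H-only peaks had a median width of 247 bp and a median percentile of 21.8, against 441 bp and 55.4 for shared R377H peaks. Most were not near misses: the median gap to the nearest peak of the other list was 2457 bp for absent WT peaks and 2842 bp for R377H-only peaks, and 28.5% and 28.3% lay within 1 kb of one.

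**Figure D1:**
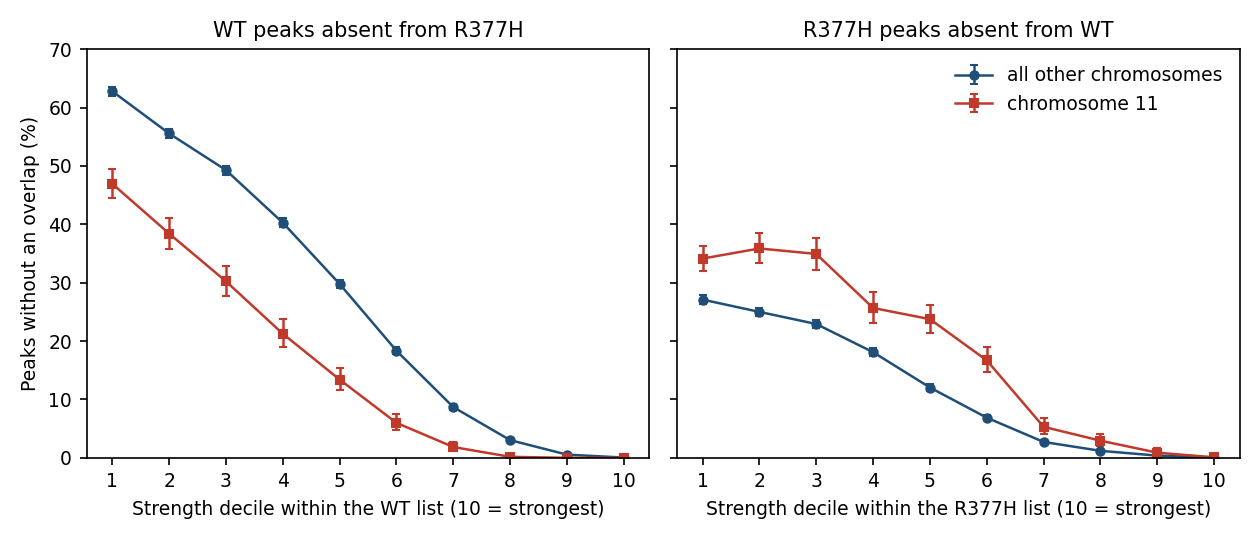
Share of peaks without an overlap in the other list (y axis, percent) by strength decile within the list (x axis, 10 is strongest), for WT peaks on the left and R377H peaks on the right; bars are exact 95% intervals. Squares are chromosome 11 and circles all other chromosomes: chromosome 11 lies below the rest on the left and above it on the right in the weaker deciles, and all curves come near 0 in the strongest.

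Chromosome 11 was set apart because its share of peaks had been seen to be high in R377H, so that share is a description and no finding. It held 7.16% of WT peaks and 8.61% of R377H peaks, a ratio of 1.2, and between 7.13% (H455R) and 8.02% (K365T) in the 8 other mutant lists. In all 25 of its 5 Mb bins the R377H share exceeded the WT share, by a log2 ratio of 0.07 to 0.55 with a median of 0.30. Against the median of the 8 other mutants the log2 ratio was 0.05 to 0.54 in the same bins, with a median of 0.26. The smallest shifts from WT were 0.07 from 0 to 5 Mb and 0.08 from 115 to 120 Mb, the last bin, from 120 Mb, stood at 0.30, and the largest shift was 0.55 from 25 to 30 Mb. Over the 469 bins of the other chromosomes the median log2 ratio of R377H to WT was -0.03. Chromosome 11 carried 13.8% of the R377H-only peaks (13.3 to 14.3) and 4.73% of the absent WT peaks (4.54 to 4.93). No absent WT peak on chromosome 11 reached the strongest 20% (0 of 2260, which allows up to 0.163%), while 11 of 2241 strong R377H peaks there were absent from WT (0.491%). The copy number of chromosome 11 was not measured here, so more DNA and more open sites cannot be told apart.

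**Figure D2:**
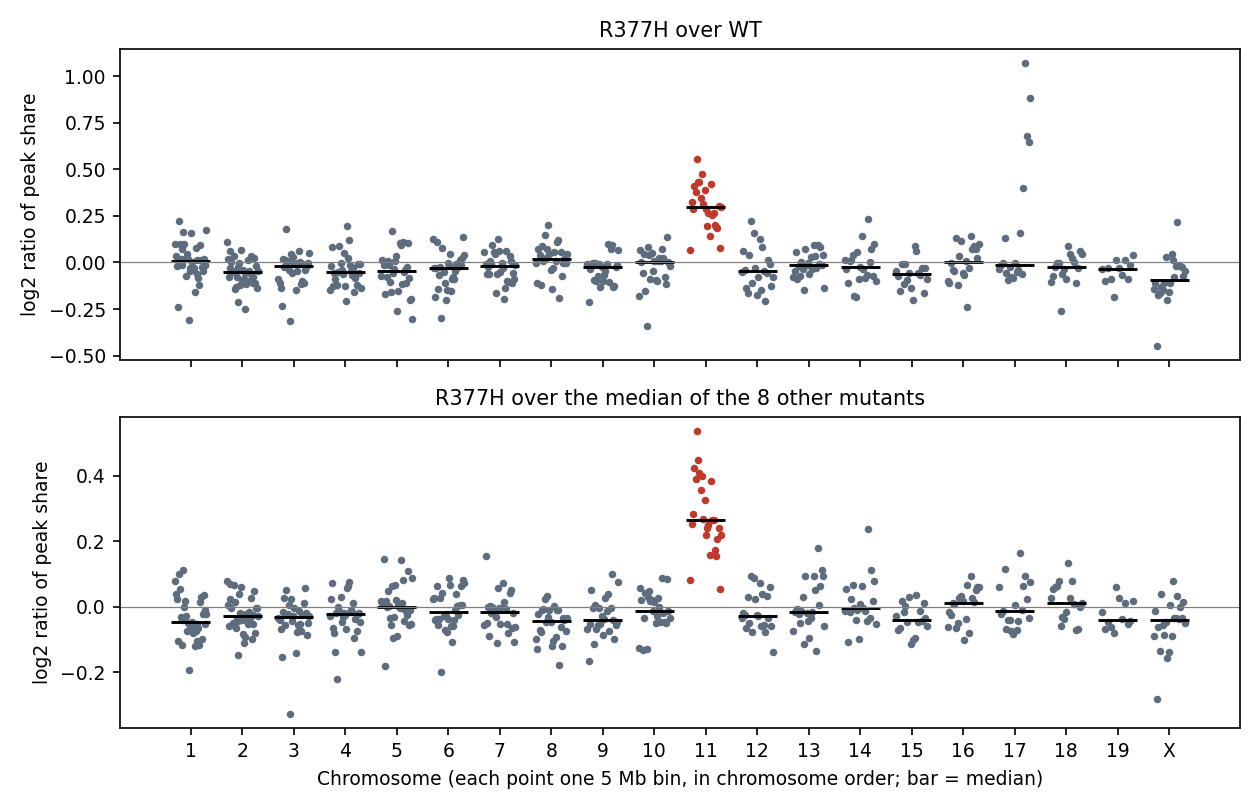
Log2 ratio of the share of all peaks in each 5 Mb bin, R377H over WT above and R377H over the median of the 8 other mutants below, by chromosome; each point is 1 bin and the black bar the median of the chromosome. All 25 bins of chromosome 11 lie above 0 in both plots, whereas 5 bins of chromosome 17 lie high only against WT.

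Chromosome 17 differed for another list. From 70 to 95 Mb its 5 bins had R377H to WT log2 ratios of 0.40 to 1.07, and 48.5% of the R377H peaks between 75 and 80 Mb were absent from WT. Against the 8 other mutants the R377H bins lay between -0.04 and 0.09, while the WT bins lay between -0.34 and -0.98, so the low list there was WT. Over the whole chromosome 16.1% of R377H peaks were absent from WT and 23.7% of WT peaks from R377H. The 2 longest runs of consecutive R377H-only peaks, with weaker peaks left out of the search, were in this stretch. One inside Ltbp1, a gene of a TGF-beta-binding matrix protein, spanned 75090565 to 75137792 with 7 R377H peaks of any strength and 0 WT peaks, and with 1 to 7 peaks in every other mutant list.

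**Figure D3:**
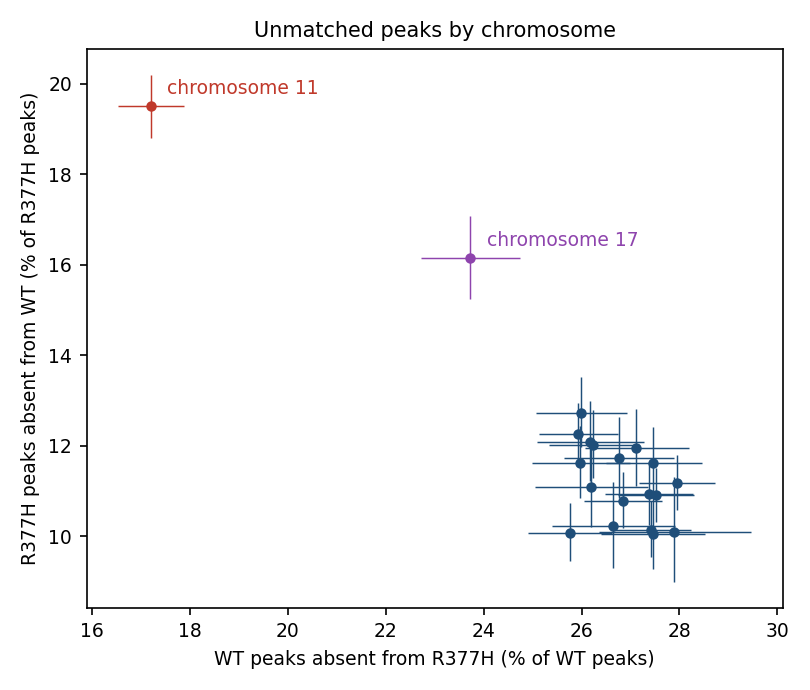
Share of R377H peaks absent from WT (y axis, percent) against the share of WT peaks absent from R377H (x axis, percent), 1 point per chromosome with exact 95% intervals. Chromosome 11 (17.2% and 19.5%) and chromosome 17 (23.7% and 16.1%) lie apart from the group of other chromosomes.

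Strong WT peaks absent from the R377H list numbered 95 of the 34344 in the strongest 20% (0.277%, interval 0.224 to 0.338), and 0.296% without chromosome 11. They lay mostly away from gene ends: 50 were intergenic, 39 inside protein-coding genes and 6 within 1 kb of a gene end, whereas 24.4% of all strong WT peaks were gene-end peaks. That comparison is not at equal strength, as 88 of the 95 were in decile 9 and 7 in decile 10. Of the 95, 84 (88.4%) were present in R377C, which replaces the same arginine by cysteine, 75 in at least 6 of the 8 other mutants and 32 in all 8. None was missing from all 8 (0 of 95, which allows up to 3.81%). For comparison, R377C held 92.8% of all shared WT peaks, weak ones included. The share among strong shared WT peaks was not computed.

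The strongest site missing from R377H and present in every other list lay inside Kat6a, the gene of a histone acetyltransferase, on chromosome 8 from 22866320 to 22866819, where WT had a fold of 13.5 (93.9th percentile). R377H kept other Kat6a sites: the peak from 22900793 to 22901809 stood at the 95.2nd percentile in WT and its partner at the 96.3rd in R377H. A weaker WT neighbour, from 22871611 to 22872203 at the 84.9th percentile, had a partner at the 57.7th in R377H. The next sites missing from R377H alone lay 21.9 kb from Zp3r, a gene of a sperm acrosomal protein, on chromosome 1 (130524633 to 130525181, fold 13.1), inside the formin gene Diaph2 on chromosome X (130256607 to 130257223, fold 12.8), 187 kb from Rgs17, a regulator of G protein signalling, on chromosome 10 (6109432 to 6109960, fold 11.2), and inside Magi1, a junction scaffold gene, on chromosome 6 (93858325 to 93858749, fold 11.2). All 5 stood between the 89.3rd and 93.9th percentile of WT.

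Other strong absent sites were missing from further lists too. One lay 31.7 kb from Kitl, which encodes the ligand of the KIT receptor, on chromosome 10 (99983434 to 99983945, fold 13.8, 94.4th percentile) and was found in 5 other mutants, R377C among them. The remaining ones of the 10 strongest lay inside the glutamate receptor gene Grin2a and inside Nckap5, and 21.2 kb from the endothelial lipase gene Lipg, each found in 7 other mutants. The single strongest absent peak covered the start of Lsm14b, an RNA-binding protein gene, on chromosome 2 (180024311 to 180025263, fold 15.2, 96.2nd percentile), but the R377H list skips 13 peak numbers at that place, and whether this absence is one of listing was not tested. R377C lacked it as well. On chromosome 11 the strongest absent WT peaks were weaker, at 77.4 for one inside Abr, 75.3 for one 6.98 kb from the muscle myosin gene Myh2, and 69.7 for one inside Gm11437.

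Strong R377H peaks that WT lacked numbered 65 of 29264 (0.222%, 0.171 to 0.283), and 54 of 27023 without chromosome 11 (0.2%). Chromosome 11 held 11 of the 65. Of the 65 peaks 39 were intergenic, 25 inside genes and 1 at a gene end, against 28.1% gene-end peaks among all strong R377H peaks. Here too strength was not equal, with 61 of the 65 in decile 9 and 4 in decile 10. Of the 65, 52 were present in R377C, 40 in at least 6 of the 8 other mutants and 15 in all 8, and none was in R377H alone (0 of 65, which allows up to 5.52%). Each strong site that R377H held and WT lacked was thus also listed in at least 1 other mutant. The 52 in R377C are 80%, and R377C held 85.2% of shared R377H peaks at the strength of all R377H-only peaks, mostly weak. The share among strong shared R377H peaks was not computed.

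The strongest lay 30.6 kb from Col6a3, a collagen VI chain gene, on chromosome 1 from 90735867 to 90736293, with a fold of 16.2 (97.2nd percentile), and all 8 other mutants had it. It belonged to a run from 90650789 to 90776209 in which R377H had 5 peaks, WT 0 and the other mutants 1 to 4. Further ones lay 128 kb from Suds3, a component of the Sin3 deacetylase complex, on chromosome 5 (116963021 to 116963511, fold 12.4, found in 6 other mutants) and inside the phospholipase A2 receptor gene Pla2r1 on chromosome 2 (60547069 to 60547381, fold 11.8, in 7 but not in R377C). A pair inside Ncald, the gene of a neuronal calcium sensor, on chromosome 15 (37642207 to 37642570 and 37710350 to 37710695, both fold 11) was in all 8 other mutants. Others of the 10 strongest lay 325 kb from the receptor phosphatase gene Ptpru, 281 kb from Gm6569, 29.1 kb from Grip1 and 65.3 kb from the chromatin remodeller gene Chd1, all present in R377C, and inside Cep126, where WT skips 3 peak numbers. On chromosome 11 the strongest lay inside Fam114a2 (57508136 to 57508491, fold 12), 155 kb from Rack1 (48645135 to 48645480, fold 11.2) and inside Clhc1 (29559203 to 29559555, fold 11).

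Sites seen in R377H and in no other list were weak. They numbered 3836 (21.6% of R377H-only peaks), and the strongest, inside the innate immune sensor gene Naip1 on chromosome 13 (100419850 to 100420232, fold 7.10), stood at the 71.5th percentile. The next lay near the adaptor gene Shc3, near Zmym5, at an end of the cilia gene Gas8, where WT skips 4 peak numbers, and inside Nploc4 on chromosome 11, at the 65.2nd to 65.6th percentile. On chromosome 11, 31.0% of R377H-only peaks (29.2 to 32.9) were in no other list, against 20.1% (19.5 to 20.7) elsewhere. That chromosome was set apart for its high peak share in R377H, so this contrast too is a description and no finding.

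Absent WT peaks were spread over the other mutants in the same graded way as R377H-only peaks. Of the absent WT peaks 9310 (20.8%) were in none of the 8 other mutants and 933 (2.09%) in all 8; of the R377H-only peaks 221 (1.24%) were in all 8. R377C held 39.9% of the absent WT peaks (39.4 to 40.3), against 82.1% of shared WT peaks at equal strength, and 38.4% of the R377H-only peaks (37.7 to 39.1), against 85.2% of shared R377H peaks at equal strength. R377C did not hold the most unmatched peaks: H455R, whose list is the longest of the mutants, held 48.3% of the absent WT peaks, and R448Q 42.9% of the R377H-only peaks. R339Q, the shortest list, held 18.5% of the absent WT peaks, and Q418R 21.1% of the R377H-only peaks. All these shares rest on the WT list, which every comparison of absent or R377H-only peaks uses, and on lists of unequal length.

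**Figure D4:**
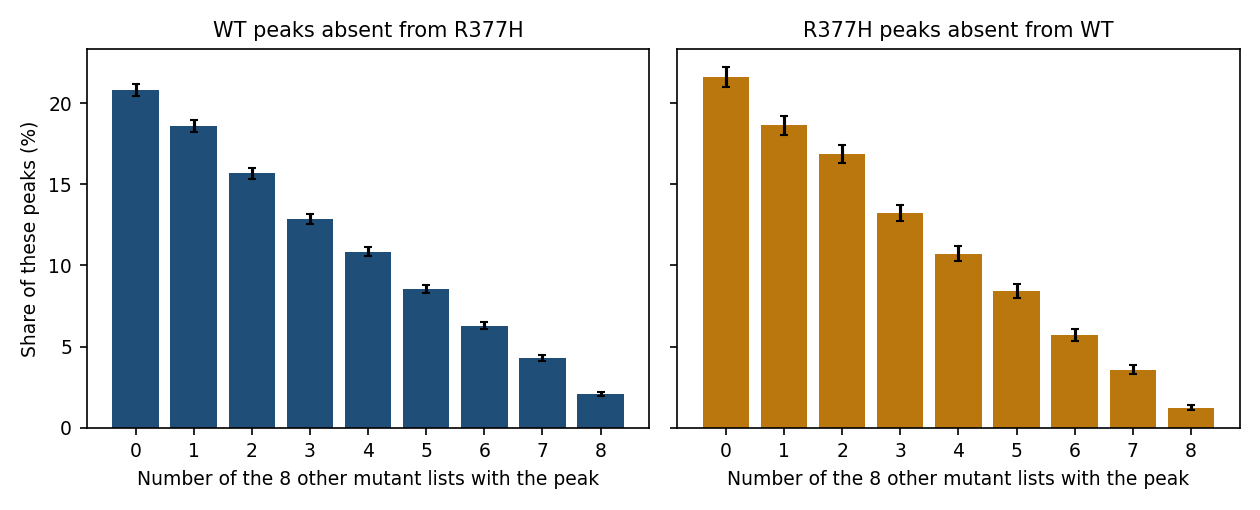
Share of absent WT peaks (left) and of R377H-only peaks (right) found in 0 to 8 of the 8 other mutant lists (x axis), in percent of each set; error bars are exact 95% intervals. On both sides the share falls stepwise, from 20.8% and 21.6% in no other list to 2.09% and 1.24% in all 8.

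Gene ends kept their peaks more often than other places. Gene-end peaks, which lie at most 1 kb from an end of an annotated protein-coding gene, made up 12.8% of WT peaks and 6.56% of the absent ones, and 13.7% of R377H peaks and 5.43% of the R377H-only ones. At equal WT strength 17.8% of gene-end peaks were absent, against 27.4% inside genes and 26.0% in intergenic DNA, a difference of -8.16 points between gene ends and intergenic DNA, and -8.23 points without chromosome 11. At equal R377H strength 6.77% of gene-end peaks were R377H-only, against 11.5% inside genes and 14.1% in intergenic DNA (-7.32 points, and -6.99 without chromosome 11). Peak width was not held equal. Among peaks matched 1 to 1 outside chromosome 11 the median WT width was 793 bp at gene ends, 452 bp inside genes and 454 bp in intergenic DNA. The part of width in these differences was not tested. Intergenic DNA held 45.8% of the R377H-only peaks but 37.3% of the absent WT peaks, and gene bodies 48.8% and 56.2%.

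**Figure D5:**
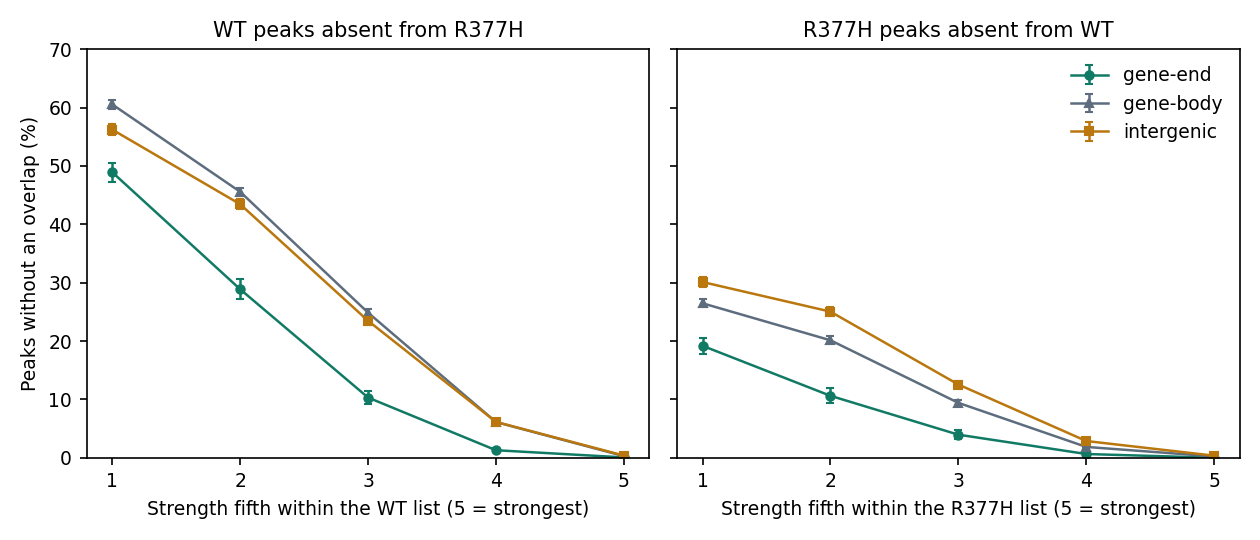
Share of peaks without an overlap in the other list (y axis, percent) in 5 strength classes of equal size within the list (x axis, 5 is strongest), for gene-end, gene-body and intergenic peaks, WT on the left and R377H on the right; bars are exact 95% intervals. Gene-end peaks lie lowest in the weaker classes of both lists, and intergenic peaks lie highest in the R377H list.

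Few genes differed at their ends, and mostly by weak peaks. A gene-end peak was found in both lists for 14975 protein-coding genes. A gene counted as lost when R377H had no peak near its ends and none overlapping the WT gene-end peak. Of 15483 genes with a WT gene-end peak, 460 (2.97%) were lost by this rule. Outside chromosome 11 there were 433 (3.04%), and on it 27 of 1262 (2.14%). Of 15217 genes with an R377H gene-end peak, 215 (1.41%) were gained by the same rule against WT. Outside chromosome 11 there were 169 (1.21%), and on it 46 of 1282 (3.59%). The lost peak was in the weaker 50% of the WT list for 402 of the 460, and the gained one in the weaker 50% of the R377H list for 190 of the 215. R377C also lacked the peak of 261 of the 460 (56.7%). Of all absent WT peaks R377C held 39.9%, so nothing particular to gene ends is read from that count. The gene table gives the outermost ends of a gene without strand. Of the 363 lost genes that have a promoter in the RefSeq table, 90 had a promoter with a peak in both lists. Only 103 (28.4%) had a promoter with a peak in 1 list alone, so for most of the 363 a lost gene end was not a lost promoter.

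Beside Lsm14b, the strongest lost gene-end peaks were those of LOC115488637 (fold 10.1, in all 8 other mutants), Lrit1, a retinal leucine-rich repeat protein gene (9.05, in 7), and Taar9, a trace amine receptor gene (8.62, in 7). Weaker ones included Fam13b (7.33, in 4), Smim34 (7.19, in all 8) and Tex13b (7.19, in 6). At Brox and Cyp2c70 the R377H list skips 2 peak numbers each. Gained gene-end peaks were led by Gm9 (9.66, in all 8), the endothelial phosphatase gene Ptprb (7.89, in 6), Acss3, an acyl-CoA synthetase gene (7.30, in 7), Fam217a (6.90, in 3), and Tnni2, a troponin gene of fast muscle (6.71, in 7). Abca9 (6.51), Gykl1 (6.51), Cyp26b1, which clears retinoic acid (6.41), the sodium channel gene Scn11a (6.17) and Ngp (6.11) followed. None of the gained peaks beyond Gm9 passed the 76.3rd percentile of the R377H list.

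Pluripotency genes kept their gene-end peaks. Of 20 naive pluripotency genes 18 had one in WT and all 18 had one in R377H. Klf5 stood at the 97.8th percentile in WT and the 99.4th in R377H, Stat3 at 94.9 and 96.6, Zfp42 at 89.3 and 89.2, Sox2 at 67.2 and 68.0, and Nanog at 63.0 and 60.7. Esrrb stood higher in R377H, at 50.1 and 78.8, and Nr0b1 lower, at 66.0 and 45.0. Pou5f1, a core pluripotency gene, stood low in both, at 3.78 and 13.6; these percentiles rank the fold over expected coverage and not the amount of signal. Otx2, a formative gene, stood at 72.2 and 7.44, but at different peaks: the WT peak from 48654502 to 48655803 on chromosome 14 was overlapped in R377H by one from 48654317 to 48655658 at the 71.8th percentile, which lay outside the 1 kb window. Dppa3 gained a gene-end peak in R377H, at the 0.601st percentile. The 8 formative and primed genes and the 9 genes of the LIF and STAT3 pathway with a WT peak also had one in R377H, as did all 12 chromatin remodeller genes, 11 neural genes, 20 imprinted genes and 15 growth and signalling genes of chromosome 11. With 2.97% lost over all genes, lists of this size would hold 0 or few lost genes, and nothing particular to them is read from these counts.

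The peaks lost in the other lists stood below the 50th percentile of WT, and at Rad21, Evx1 and Hnf4a a stronger peak of the gene was kept. Over all genes 2.97% were lost, and nothing particular to these short lists is read from their few lost genes. Of the 15 CTCF and cohesin genes with a WT gene-end peak, Rad21, which encodes the cohesin subunit that closes the ring, was without one in R377H. The lost Rad21 peak was at the 40.7th percentile (51961432 to 51961701 on chromosome 15), whereas the strongest Rad21 peak, from 51990995 to 51992071 in WT, lay inside the annotated gene and was kept, at the 87.5th percentile in WT and the 88.9th in R377H. Of 11 mesoderm genes, Evx1, a homeobox gene of the primitive streak, lost a peak at the 29.5th percentile and kept one at 70.2 in WT and 68.3 in R377H. Of 5 primitive endoderm genes, Hnf4a lost one at the 45.9th percentile, found in 7 other mutants, and kept one at 83.9 in WT and 77.3 in R377H. Of 9 trophoblast genes, Elf5 had 4 WT peaks between the 21.2nd and 32.1st percentile and none in R377H. Of 35 Hox genes with a WT gene-end peak Hoxd4 (30.7th percentile) and Hoxd11 (6.76th) lost it, and Hoxb5, which had none in WT, gained one at the 7.14th percentile of R377H. Hoxa3 had a WT gene-end peak and none in R377H, but an R377H peak overlapped the WT one, so Hoxa3 was not counted as lost. Of 33 clustered protocadherin genes with a WT gene-end peak, Pcdha1 (35.4th percentile), Pcdhb12 (24.8th) and Pcdhb11 (10.8th) lost it. CTCF is known to bind promoters of this family, but the gene-end peaks counted need not be promoters. Many gamma genes shared 1 and the same strongest WT gene-end peak (37840591 to 37841156 on chromosome 18, 65.5th percentile), so the 33 genes are not separate sites.

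Promoter windows of RefSeq, 300 bases each with start and strand known, were also mostly shared. Of 16733 with a WT peak, 558 (3.33%) had it in the WT list alone, and of 16441 with an R377H peak, 357 (2.17%) had it in the R377H list alone; without chromosome 11 the shares were 3.5% and 1.95%. The same CTCF core was in 12.6% of windows with a peak in both lists (12.1 to 13.2), in 7.71% of the WT-alone windows (5.63 to 10.2), in 6.44% of the R377H-alone windows (4.13 to 9.51), in 4.57% of windows with neither, and in 8.61% of all 32817 windows. The intervals of the WT-alone and R377H-alone shares overlap widely. The GC box GGGCGG, to which SP-family factors bind, was in 61.9%, 23.1%, 17.9% and 9.72% of the same 4 sets in that order, and in 35.6% of all windows. CCAAT was in 37.3%, 32.3%, 36.7% and 37.8%, and in 37.4% of all. The median CpG count was 5 in WT-alone windows and 6 in R377H-alone windows, near the 7 of all windows. It was 20 where both lists had a peak and 3 with neither. Motifs were searched as letters on both strands in these windows only, and a match is not a measured binding site.

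Where both lists had a peak, strength was close. Peaks that overlapped exactly 1 peak of the other list, each way, gave 119148 pairs, 69.4% of WT and 81.4% of R377H peaks. Spearman's rank correlation of fold across these pairs was 0.84, and 0.84 without chromosome 11; it is a description across peaks of 2 pooled lists, with no p. The percentile among pairs, R377H minus WT, had a median of 0.239, with 5% of pairs below -27.7 and 5% above 27.2. On chromosome 11 the median was 1.56 and on chromosome 17 it was 1.09. The R377H peak was the narrower one in 61.8% of pairs, 63.1% without chromosome 11 and 46.7% on it. Gene-end pairs outside chromosome 11 varied less, from -18.0 to 19.9 between the same bounds, with a median of 1.41. Neither strength nor width was held equal in that comparison.

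The largest falls were at sites with a narrow R377H peak left inside a strong WT peak. The 5 largest lay 40.3 kb from the potassium channel gene Kcna3 on chromosome 3 (106995362 to 106995896), where the fold was 13.5 in WT and 2.96 in R377H, 68.1 kb from the teneurin gene Tenm4 (11.5 and 2.96), 55.1 kb from the collagen gene Col3a1 (11.1 and 2.96), inside Nckap5 (12.1 and 3.16) and inside the ETS factor gene Etv1 (13.4 and 3.35). Near Kcna3 the peak was 535 bp wide in WT and 234 bp in R377H. Nckap5 also held one of the strongest absent WT peaks, at 126210030 to 126210565 on chromosome 1. At gene ends the largest falls were at Btla, a lymphocyte receptor gene (12.8 and 3.75), the transcription factor gene Sox6 (10.3 and 3.75), Ctu1 (8.39 and 3.34), the protocadherin gene Pcdhga1 (7.47 and 2.96) and Xlr3c (8.48 and 3.35).

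The largest rises were inside Klhl7, a ubiquitin ligase adaptor gene, on chromosome 5 (24124198 to 24124397, fold 2.73 in WT and 9.86 in R377H), 63.6 kb from Brms1l (3.59 and 13.8), 30.2 kb from Ralgps2 (2.76 and 9.31), inside the stress kinase gene Map3k5 (2.59 and 8.88) and 104 kb from the semaphorin gene Sema6a (2.59 and 8.87). At gene ends they were at Miip (3.74 and 10.8), Vit (3.31 and 7.89), Tnfrsf26 (2.59 and 6.51), Lrp2bp (2.73 and 6.51) and Igsf10 (3.74 and 8.68). Vit lies on chromosome 17 at 78508776 to 78508997, in the stretch where WT is low. Folds of the 2 lists are set side by side here and were not scaled to each other.

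Several neighbouring WT sites were absent together. The search used the stronger 60% of the WT list, and the counts given are of peaks of any strength. In that part the absent share fell from 28.6% in decile 5 to 0.0408% in decile 10. How long a run scattered absences would give was not tested, so the runs are a description only. The longest run without an R377H overlap lay on chromosome X from 72218201 to 72256963 at Magea4, a cancer-testis antigen gene, with 6 WT peaks and 0 in R377H. R377C and R342C also had 0 there, and the other mutants had 1 to 5. On chromosome 14 a run from 79527759 to 79543037 at Elf1, an ETS factor gene, held 5 WT peaks and 0 in R377H, with 2 to 5 in each of the 8 other mutants. At Kcnj13, a potassium channel gene on chromosome 1 (87331776 to 87389449), WT had 7 peaks, R377H 1 and S354F 0, with 2 to 6 in the remaining mutants. A wider run lay 50855 bp from Slc35b3 on chromosome 13 (39011734 to 39450690). There WT had 7 peaks, R377H 2 and the other mutants 0 to 5.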

How the data were processed

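Omni-ATAC-seq was measured in 20 samples of 10 genotypes. Per the submitters' processing notes, Trim Galore, Bowtie2, MACS2 and deepTools were used with the mouse build mm10, without versions; the sources used here do not give thresholds, duplicate handling or adapter shift. The authors deposited 1 headerless peak list per genotype from 2 pooled replicates, with 1 value per peak. From its steps and range this deposited value was taken to be a MACS2 fold enrichment, that is a ratio of peak coverage over the expected coverage. Read totals per sample were not used here, and background coverage was computed as 1 over the step of the fold values, minus 1.

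Overlaps of at least 1 bp, percentiles within a list, standardisation over 20 strength bins and exact Clopper-Pearson 95% intervals were computed in Python 3.11.15 (numpy 2.4.6, pandas 2.3.3, scipy 1.17.1, matplotlib 3.10.9) and tested on simulated data. Coordinates are 1-based mm10 positions. Genes and promoters came from RefSeq tables of GRCm38.p6, which give no strand for gene spans and are incomplete for promoters, and the promoter table holds none for chromosome 18. No genome sequence was used, so motifs inside peaks were not searched. Pairs matched 1 to 1 were those where each peak overlapped exactly 1 of the other list.

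Named were the 10 strongest unmatched peaks each way outside chromosome 11 and 3 on it, the 5 strongest peaks missing from or found in R377H alone, the 10 strongest lost and gained gene ends, the 5 largest rank changes each way, overall and at gene ends, outside chromosome 11, list members that lost or gained a peak, and Ctcf; 1 of the lost gene ends is not reported here. Runs and printed promoters were chosen after their values were seen. The members and lists were chosen with earlier results of these data known. Alternatives were 50% overlap, no chromosome 11, the stronger 50% of peaks, lists of equal length and a 500 bp window.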

Additional observations from a re-analysis of the deposited data

How the results depend on the processing

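Under alternative settings 18 values moved beyond their counting interval (for the count of genes, beyond 1.5 times) and 18 did not, and no direction reversed. Not every unmoved value could have moved: the strongest 20% of WT peaks lie within the stronger 50%, so their absent share was fixed under that setting. With an overlap of 50% of the shorter peak, 26.5% of WT peaks were absent, 12.7% of R377H peaks were R377H-only and 39.5% of these were in R377C. Without chromosome 11 the 3 values were 26.7%, 11.4% and 40%. When the peaks looked for were limited to the stronger 50% they were 5.82%, 2.54% and 57.8%, chromosome 11 held 16.4% of R377H-only peaks, the gene-end difference was -4.14 points and 58 genes lost their gene-end peak, against 460. With lists of equal length 20.1% of WT peaks and 0.202% of strong WT peaks were absent, 18.5% of R377H peaks were R377H-only, chromosome 11 held 13.1% of them, R377C 50.7%, and 316 genes lost their gene-end peak. A 500 bp window at gene ends gave -9.92 points. Leaving out peaks at gaps in the peak numbers, an alternative chosen after seeing the data, moved none of the 7 values it was applied to. No paired analysis was possible because both replicates of a genotype were pooled into 1 list, and for the same reason no replicate could be left out. Without replicate lists, intervals cover counting error only; depth differs between the lists, and an unmatched weak peak may be open but below the calling threshold, which was not tested.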
